A study of Mus musculus with 446 samples.

Results

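The H2 genes are the genes of the mouse major histocompatibility complex, and they were taken here as all genes whose symbol begins with H2-. The rule found 45 genes among the 47643 genes of the liver and muscle tables, and 2 of them, H2-M3 and H2-M2, among the 2728 complete genes of the adipose table. RNA had been sequenced from abdominal adipose tissue, liver and skeletal muscle of male Diversity Outbred mice, whose genomes are mosaics of several founder strains, different in every animal. The first group was fed a diet high in fat (60 kcal% fat) over 14 weeks, and the second stayed on a control diet (10 kcal% fat) that all of the mice, housed from 6 weeks of age, had eaten before. The expression of liver and muscle is described in 74 high-fat and 74 control mice and that of adipose tissue in 74 high-fat and 73 control mice, 1 library per mouse and tissue, after mouse 80 of the high-fat group was left out. Its library labelled liver held summed skeletal muscle markers of 75520 and hepatocyte markers of 223.2 scaled TPM, and its library labelled muscle 414.5 and 71280, the reverse of the other mice. Mice of the outbred stock differ in genotype, so the spread among mice of a diet holds genetic as well as other differences.

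Class I molecules of the complex carry peptides from inside the cell to CD8+ T cells, together with the light chain beta-2-microglobulin (B2m). Class II molecules, made mainly by B cells, dendritic cells and macrophages, show peptides from outside the cell to CD4+ T cells. Mouse strains differ in the complex more than almost anywhere else in the genome: they carry different alleles of H2-K1 and H2-D1, different numbers of Q and T genes, and in some haplotypes an E alpha gene that is not transcribed because part of its promoter is deleted. Reads from such alleles can be lost, or assigned to a neighbouring copy, when they are aligned to a reference of 1 haplotype, so every level below is a level of reads assigned to that gene name.

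By role the 45 genes were 2 classical class I genes (H2-K1 and H2-D1), 7 Q, 6 T and 12 M genes of the non-classical class I families, 5 class II chain genes, 5 genes of class II peptide loading, 7 pseudogenes and H2-Ke6. H2-Ke6 lies in the complex but encodes a hydroxysteroid dehydrogenase (also known as Hsd17b8), and it takes no part in antigen presentation. In the GENCODE M21 annotation, which was used for the symbols, all 45 lie on chromosome 17 of GRCm38, between positions 33974659 and 37483552. That annotation lists 11 of the 45 as not protein-coding. Among the 11 are H2-Q5, H2-T10, H2-Bl and H2-Ea-ps, listed there as polymorphic pseudogenes. The authors' own build is not given in the sources used here. A gene was tested in a tissue where its scaled TPM (relative transcript abundance per unit of gene length, corrected for library composition) reached at least 1 in enough mice: 23 H2 genes passed in liver, 21 in muscle and 1, H2-M3, in adipose tissue. Of the 22 genes not tested in liver, all had a median under 1 scaled TPM in both diets in liver and muscle, and 4 were at 0 in every liver and muscle library.

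The promoters of 5 members that recur below are printed with short letter strings of textbook control elements of the complex marked. In class I promoters these elements are a kappa B site of enhancer A (letters searched: GGATTCC), an interferon response element (TTCACTT) and an inverted CCAAT box, or Y box (GATTGG). Class II promoters share the inverted CCAAT box and an X box (AGCAAC was searched). Each sequence is RefSeq's for GRCm38.p6, 5′ to 3′ on the gene's strand, from 250 bases before to 50 bases after the annotated start, with matches to these 4 letter strings on either strand in capitals.
H2-K1, chr17:34000284-34000583, strand -: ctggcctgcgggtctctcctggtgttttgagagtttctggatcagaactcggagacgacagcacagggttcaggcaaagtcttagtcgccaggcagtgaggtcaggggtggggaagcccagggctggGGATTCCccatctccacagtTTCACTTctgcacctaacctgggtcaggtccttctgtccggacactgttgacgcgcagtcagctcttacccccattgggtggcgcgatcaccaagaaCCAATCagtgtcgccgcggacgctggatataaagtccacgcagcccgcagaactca
H2-D1, chr17:35262844-35263143, strand +: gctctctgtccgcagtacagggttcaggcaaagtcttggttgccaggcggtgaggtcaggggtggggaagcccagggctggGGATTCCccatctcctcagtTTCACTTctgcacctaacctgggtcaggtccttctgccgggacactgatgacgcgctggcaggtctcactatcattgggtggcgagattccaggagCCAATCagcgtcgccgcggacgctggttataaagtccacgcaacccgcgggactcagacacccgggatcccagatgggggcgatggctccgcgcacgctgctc
H2-Q10, chr17:35469839-35470138, strand +: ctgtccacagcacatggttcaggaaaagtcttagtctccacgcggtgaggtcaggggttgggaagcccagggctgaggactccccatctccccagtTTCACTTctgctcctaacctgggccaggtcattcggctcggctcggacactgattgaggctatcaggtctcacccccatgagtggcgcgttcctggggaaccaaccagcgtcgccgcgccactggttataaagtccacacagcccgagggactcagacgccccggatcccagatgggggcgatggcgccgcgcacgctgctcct
H2-Aa, chr17:34287774-34288073, strand -: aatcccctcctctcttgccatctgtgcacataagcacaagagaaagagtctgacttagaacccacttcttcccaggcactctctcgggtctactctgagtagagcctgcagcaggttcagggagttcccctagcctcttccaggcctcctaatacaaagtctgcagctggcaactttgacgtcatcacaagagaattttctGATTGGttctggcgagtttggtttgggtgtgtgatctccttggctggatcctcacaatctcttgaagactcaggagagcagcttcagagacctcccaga
H2-Eb1, chr17:34305617-34305916, strand +: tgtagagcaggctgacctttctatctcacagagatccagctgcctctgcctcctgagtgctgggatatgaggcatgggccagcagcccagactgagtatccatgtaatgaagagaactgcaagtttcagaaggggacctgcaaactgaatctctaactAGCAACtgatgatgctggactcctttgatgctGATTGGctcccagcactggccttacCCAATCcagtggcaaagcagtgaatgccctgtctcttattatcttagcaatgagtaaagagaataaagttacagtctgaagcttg
H2-K1 has 2 entries in the table, and the one with the more downstream start is shown. H2-K1 and H2-D1 held the kappa B letters, the interferon response letters and the CCAAT box, the last on the opposite strand, in the same order. In H2-D1 the first of these matches began 169 bases and the last 53 bases before the start. H2-Q10 held only the interferon response letters, 154 bases before the start. H2-Aa held the CCAAT box 49 bases before the start, and H2-Eb1 held it at 60 bases with the X box letters at 92 and a second CCAAT match on the opposite strand at 35. The table matched 32 of the 45 genes, H2-Ab1 and H2-Ea-ps not among them. Of these 32, 26 held the CCAAT letters, 14 the interferon response letters, 7 the X box letters and 5 the kappa B letters in at least 1 entry, while over all 32851 promoters of the table the shares were 16.1%, 4.66%, 14.8% and 3.79%. No letters are called a binding site by such a match. Only exact matches were searched, so a missing match does not show that an element is absent.

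The members also differ in how far their reads can be told apart. Of all 50-base stretches of a gene's GENCODE transcripts, 36.4% in H2-Q5, 34.5% in H2-T22, 32.9% in H2-T10, 32% in H2-Q6, 29.4% in H2-T-ps and 26.4% in H2-Q7 also occur in another gene. The closest partners are H2-T10 for H2-T22, with 31.2% shared, and H2-Q7 for H2-Q5, with 25.5%. For H2-Q7 the closest is H2-Q10, with 14% shared. H2-K1 (9.63%) and H2-D1 (12.8%) share less. None of the 50-base stretches of H2-Ab1, H2-Eb1 and H2-Ea-ps occurs elsewhere, and 0.488% of those of H2-Aa do. H2-Ke6 shares 70.5% with the overlapping gene model Gm20427. The values of these 6 Q and T genes are therefore uncertain in how they divide reads among close copies. H2-Q4 shares 21.8% and H2-Q10 19%, while H2-T24 shares 3.17% and H2-T3 0.894%. This count covers the reference haplotype only.

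In liver H2-Q10, a class I heavy chain that liver secretes, was the most abundant, with a median of 605.5 scaled TPM on the high-fat diet (lowest 254.2, highest 1489) and 699.8 on the control diet (268.1 to 1888). H2-K1 followed, with medians of 184.3 on the high-fat diet and 211.1 on the control diet, and then H2-D1 with 101.6 and 122.8. H2-T23, which encodes Qa-1, a ligand of inhibitory receptors of natural killer cells, came next with 69.6 on the high-fat diet and 82.2 on the control diet. The spread among mice was wider than the step from one gene to the next: H2-K1 ran from 38.5 to 394 on the high-fat diet and from 78.8 to 509 on the control diet, across the range of H2-D1 (24.0 to 162.5 and 39.4 to 207.8). The class II chains lay lower, at medians of 23.9 and 32.8 for H2-Aa, 16.4 and 22.5 for H2-Ab1, and 9.54 and 13.9 for H2-Eb1 on the high-fat and the control diet. H2-DMa and H2-DMb1, chains of the molecule that loads peptides onto class II, had medians of 1.75 and 2.44 on the high-fat diet and 1.99 and 2.50 on the control diet.

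In muscle the order differed. H2-D1 and H2-K1 led with medians of 58.5 and 46.01 on the high-fat diet and 57.04 and 45.6 on the control diet, a step that their ranges covered. H2-Aa had medians of 18.96 on the high-fat diet and 19.3 on the control diet, and H2-Ab1 13.7 and 12.5. H2-Q10 was near the limit of detection, with medians of 0.856 on the high-fat diet and 1.60 on the control diet, and 38 of 74 high-fat and 30 of 74 control muscles had under 1. Liver and muscle were scaled separately, so levels are compared within a tissue. In the bulk RNA of a tissue, fewer cells of a type and less RNA per cell cannot be told apart.

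**Figure D1:**
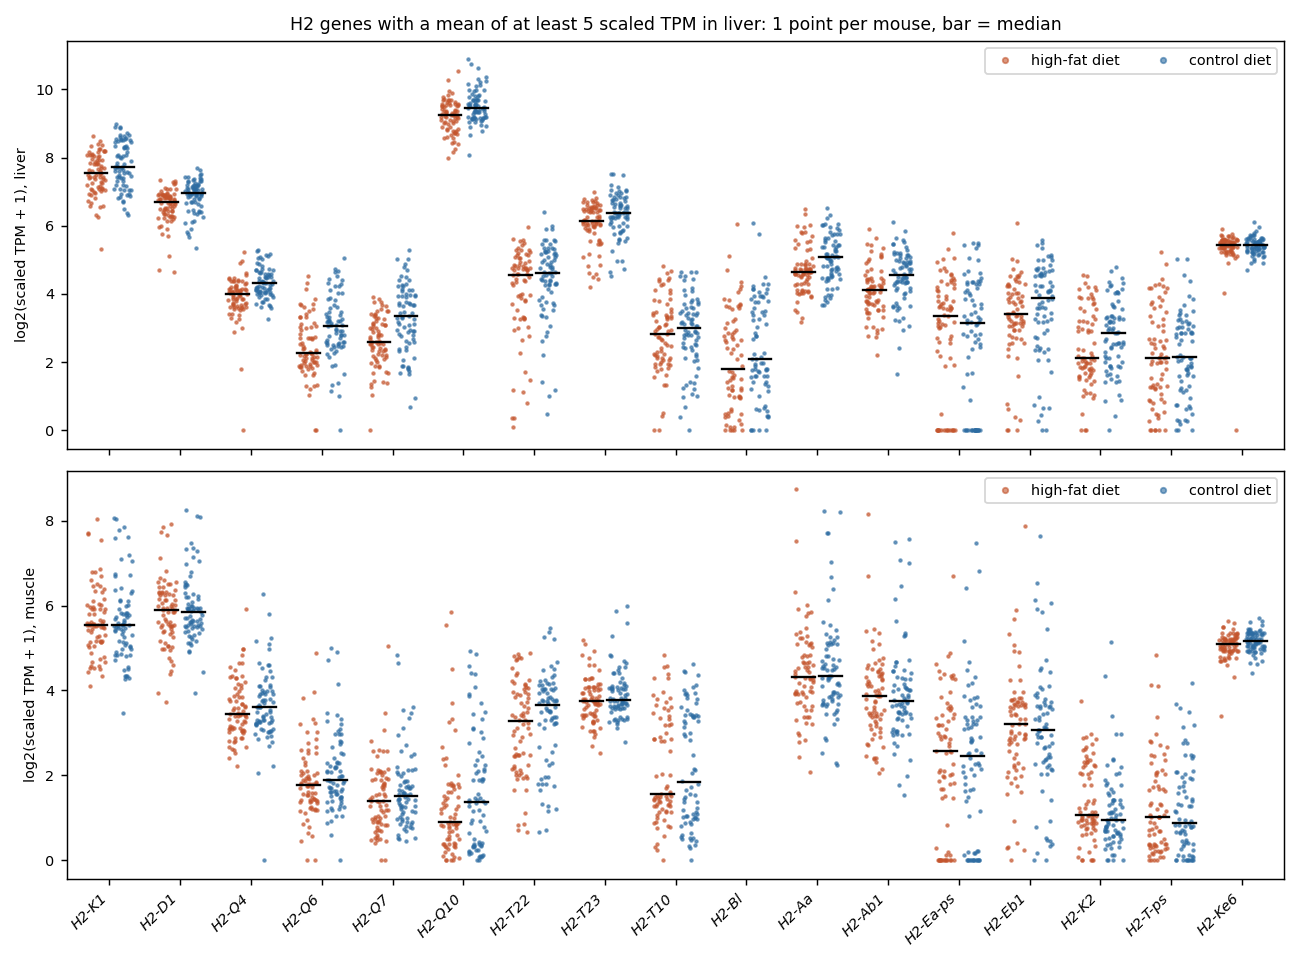
Level of the 17 H2 genes whose mean in liver reached 5 scaled TPM, as log2(scaled TPM + 1), in liver (top) and muscle (bottom). Each point is 1 mouse, high-fat left of control, and bars are medians. H2-Bl was not tested in muscle and is not drawn there. H2-Q10 stands highest in liver and near 0 in muscle, and H2-Ea-ps has a group of mice at 0 in both tissues.

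Some libraries stand apart. Scale factors under 0.333 of the tissue's median, where protein-coding genes took up a small share of the TPM, were found in 12 high-fat and 14 control livers, 9 high-fat and 2 control muscles, and 7 high-fat and 11 control adipose libraries. The share of TPM on protein-coding genes reached down to 0.409% in a high-fat and 0.607% in a control liver, against medians of 59.6% and 60.2%. The liver libraries of 1 high-fat and 2 control mice held summed skeletal muscle markers of 2709 to 4871 scaled TPM, against 230.3 in the next highest. The muscle libraries of high-fat mice 91 and 150 and control mouse 39 held summed hepatocyte markers of 1681 to 5765, with 823.7 in the next. Summed T cell markers were 18.2 to 246.6 in the muscles of high-fat mouse 92 and control mice 62, 34, 21, 10 and 47. The next highest muscle had 6.88. The labelled tissue's own markers were present in every library, with lowest sums of 25020 for hepatocytes in liver, 32520 for skeletal muscle in muscle and 1875 for adipocytes in adipose tissue.

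In liver 5 class I and 2 class II genes were lower on the high-fat diet. Over 12374 genes tested in liver, limma with Benjamini-Hochberg adjustment called 9.88% different between the diets, 4.54% higher and 5.34% lower. Of the 23 H2 genes, 7 fell and none rose. These were H2-Q4, H2-Q6, H2-Q7, H2-Q10 and H2-D1 of class I and H2-Aa and H2-Ab1 of class II. At an unadjusted p under 0.05, 12 were lower and none higher, and 2620 of all 12374 genes passed that threshold in either direction. In all 22 of 23 fold changes were negative, with a median of −0.30 on the log2(scaled TPM + 1) scale, against −0.01 over all genes tested.

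H2-Q7, which encodes the Qa-2 antigen, had the largest fall of the 7. Its scaled TPM ranged from 0 to 13.97 with a median of 5.05 in high-fat livers, and from 0.601 to 38.1 with a median of 9.14 in control livers. The ranges overlapped, but 14 of 74 high-fat livers lay above the control median. The log2 fold change was −0.69 ± 0.14 (SE), with an adjusted p of 1.84e-04. Its close copy H2-Q6 had a median of 3.78 in high-fat livers (lowest 0, highest 22.2) and 7.38 in control livers (0 to 32.1), a log2 fold change of −0.62 ± 0.15 (adjusted p = 0.00121). H2-Q4, another Q gene, had a median of 14.9 in high-fat livers (0 to 36.2) and 18.8 in control livers (8.52 to 38.4), and fell by 0.45 ± 0.09 on the log2 scale (adjusted p = 1.81e-04). Only 15 of 74 high-fat livers passed the control median. H2-Q10 averaged 621.7 ± 210.1 scaled TPM in high-fat livers and 774.6 ± 288.5 in control livers (SD, n = 74 each), a log2 fold change of −0.31 ± 0.08 (adjusted p = 0.00272). It is also the H2 gene closest to H2-Q7 (14% of the H2-Q7 stretches), at a far higher liver level. How far reads of H2-Q10 add to the H2-Q7 values was not tested.

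Of the classical genes, H2-D1 passed the test and H2-K1 did not. H2-D1 averaged 99.5 ± 29.1 scaled TPM in high-fat livers and 121.9 ± 35.6 in control livers (SD, n = 74 each), and 11 of 74 high-fat livers lay above the control median. Its log2 fold change was −0.30 ± 0.08 (adjusted p = 0.00752). H2-K1 averaged 196.7 ± 75.5 in high-fat livers and 244 ± 111.7 in control livers, with a similar log2 fold change of −0.27 ± 0.11 and an adjusted p of 0.0924. H2-T23 had −0.28 ± 0.10 (adjusted p = 0.073) and was called when libraries were scaled by their summed coding TPM (adjusted p = 0.0421). H2-T22 (−0.34 ± 0.21) and H2-T10 (−0.09 ± 0.18), non-classical molecules that some gamma-delta T cells recognise, did not pass the test, nor did H2-Bl (−0.35 ± 0.24), named after its expression in blastocysts.

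The class II chains H2-Aa and H2-Ab1, which form the I-A molecule, fell in liver. H2-Ab1 ranged from 3.65 to 58.8 scaled TPM with a median of 16.4 in high-fat livers, and from 2.14 to 67.3 with a median of 22.5 in control livers. Although the ranges overlapped almost entirely, 15 of 74 high-fat livers were above the control median. The log2 fold change was −0.40 ± 0.12 (adjusted p = 0.023). H2-Aa averaged 28.3 ± 16.1 in high-fat livers and 35.6 ± 17.4 in control livers (SD, n = 74 each), with −0.33 ± 0.11 (adjusted p = 0.038). Both calls are close to the threshold and were lost when no filter on low values was used (adjusted p = 0.059 for H2-Ab1 and 0.0952 for H2-Aa). The call of H2-Aa was also lost without liver libraries with a second number in the title (−0.31, adjusted p = 0.0757). H2-Eb1, the I-E beta chain, had −0.27 ± 0.22 and did not pass. H2-Ea-ps, the name under which the annotation lists the I-E alpha chain gene, was the only member with a positive value in liver, 0.16 ± 0.29, and its groups were the most spread. H2-Q5 passed without libraries of low scale factor (−0.54, adjusted p = 0.0272), and was not among the 7. With TPM as deposited, not scaled, 1 of the 23 members was called in liver (H2-Q7) and 22 of 23 were still negative.

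Markers of other cell types were measured in the same livers. Of 12 macrophage markers tested, none rose and 2 fell, Mpeg1 (−0.34 ± 0.12, adjusted p = 0.0461) and Timd4 (−0.28 ± 0.08, adjusted p = 0.0192), and the summed macrophage level had a median of 147.7 scaled TPM in high-fat livers (73.04 to 326) and 176.3 in control livers (77.04 to 544.9). Of 6 hepatocyte markers 1 rose (Cyp2e1) and 4 fell (Alb, Apoa1, Fgb and Ttr). None of the 6 endothelial markers and of the 1 B cell, 1 T cell and 1 dendritic cell marker tested was called, and the T cell marker had a positive value (0.30). Over all genes in liver 4.54% rose and 5.34% fell. The summed B cell markers had a median of 5.23 in high-fat livers and 8.27 in control livers, and dendritic cell markers 3.59 and 3.78. Their part in the H2 result was not tested.

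**Figure D2:**
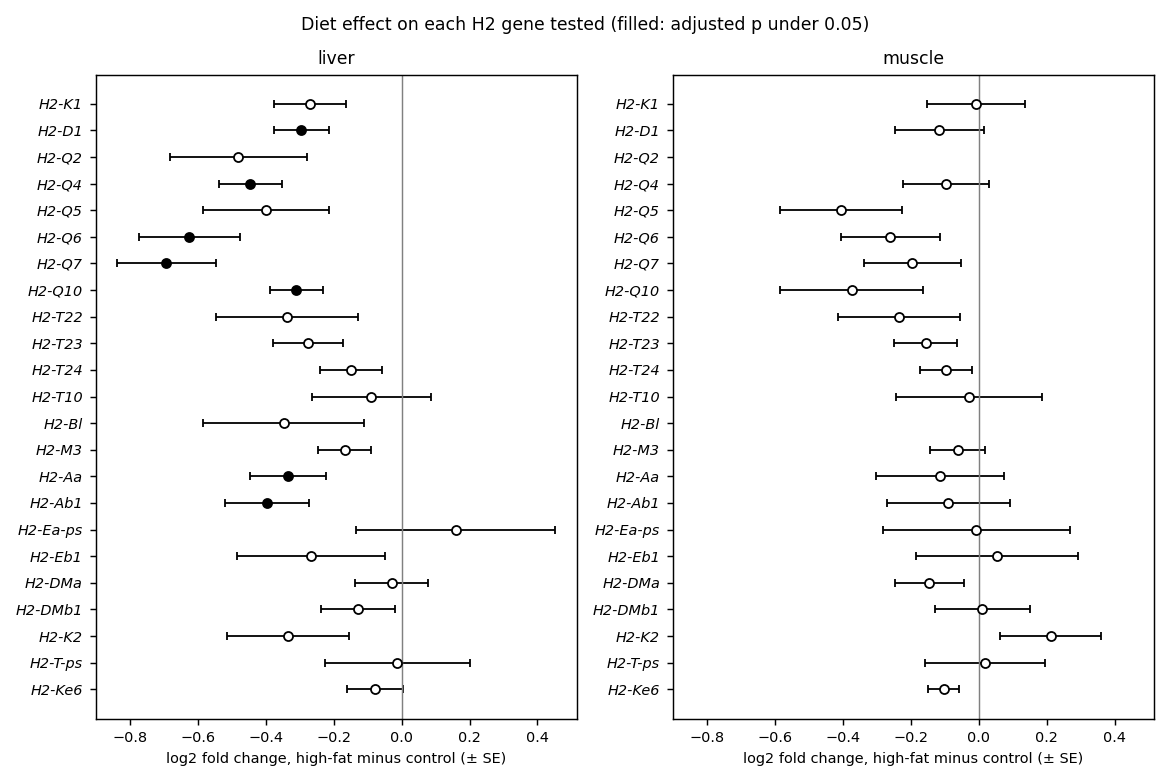
Log2 fold change (high-fat minus control, ± SE) of each H2 gene tested in liver (left, 23 genes) and muscle (right, 21 genes), on the log2(scaled TPM + 1) scale. Filled points passed an adjusted p of 0.05: 7 genes in liver, all negative, and none in muscle.

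In muscle no H2 gene passed the test. Over 13517 genes tested, limma called 1.61%, and of 21 members it called 0. A rank test also called 0. At an unadjusted p under 0.05, 2 members were lower and none higher, where 1696 of all 13517 genes passed. The 2 were H2-Q5 (−0.41 ± 0.18, adjusted p = 0.3) and H2-Ke6 (−0.10 ± 0.05, adjusted p = 0.307). H2-D1 had −0.12 ± 0.13 and H2-K1 −0.01 ± 0.15. H2-Aa had −0.11 ± 0.19 and H2-Ab1 −0.09 ± 0.18. The values of H2-K1, H2-Aa and H2-Ab1 turned positive without the libraries that held markers of another tissue or of T cells. The median of the 21 fold changes was −0.10, with −0.01 over all genes.

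A difference of the diet effect between liver and muscle was first tested without the mouse as a block, treating its tissues as independent. None of the 21 members was called, where 3.25% of 10965 genes were. At an unadjusted p under 0.05, H2-Q7 (liver minus muscle −0.50 ± 0.20), H2-K2 (−0.54 ± 0.23) and H2-Q4 (−0.35 ± 0.16) differed, with adjusted p of 0.185, 0.215 and 0.249. With the mouse as a replicate block, which keeps the pairing of tissues, H2-Q7 and the pseudogene H2-K2 passed (adjusted p = 0.0492 and 0.0488). These are 2 members where the fit without the block called 0, and 4.05% of all genes passed with the block. H2-Q10, which shares 14% of the H2-Q7 stretches, was abundant in liver only, and its part in the H2-Q7 difference was not tested.

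In adipose tissue H2-M3, which presents N-formylated peptides of bacteria and mitochondria, ranged from 5.10 to 35.6 scaled TPM with a median of 10.55 on the high-fat diet (n = 74), and from 5.35 to 19.7 with a median of 9.82 on the control diet (n = 73). Its log2 fold change was 0.11 ± 0.07 (adjusted p = 0.195), in a tissue where 44.9% of 2226 genes were called. In liver it had −0.17 ± 0.08 (adjusted p = 0.175), at medians of 1.203 in high-fat and 1.40 in control livers. The diet effect differed between liver and adipose tissue, by −0.27 ± 0.10 (liver minus adipose, limma adjusted p = 0.0346), a test that 25.8% of 1782 genes passed. The call was lost with TPM as deposited (−0.45, adjusted p = 0.109) and with a pseudocount of 0.1 (−0.45, adjusted p = 0.0824). Between muscle and adipose tissue the difference was not called (−0.17 ± 0.11, adjusted p = 0.253, with 23.5% of 1930 genes called).

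The genes of antigen presentation outside the complex's H2 symbols are given from lists. Of 21 class I presentation genes tested in liver, 1 rose and 2 fell: Pdia3, a chaperone of the loading complex, rose (0.17 ± 0.05, adjusted p = 0.0103), and Mr1 (−0.59 ± 0.08, adjusted p = 3.35e-09), which presents vitamin metabolites, and Tapbp (−0.24 ± 0.06, adjusted p = 0.00111), the bridge between transporter and class I, fell. The next by p was Fcgrt (0.12 ± 0.05, adjusted p = 0.0869). Of 12 class II presentation genes tested, 3 fell and none rose. They were Ctsl (−0.44 ± 0.06, adjusted p = 5.19e-10) and Ctss (−0.29 ± 0.09, adjusted p = 0.022), proteases of the endosome, and Cd74 (−0.33 ± 0.11, adjusted p = 0.0391), the invariant chain. Rfxank, a factor of class II promoters, had −0.18 ± 0.08 (adjusted p = 0.142). Of 25 interferon response genes, 4 fell and none rose, namely Irf7, Gbp3, Bst2 and Oas1a, with log2 fold changes from −0.55 to −0.34. The lists' medians were −0.01, −0.09 and −0.14 in liver. Over all genes in liver 9.88% were called, and the lists' shares were not tested against it.

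In muscle, where 1.61% of all genes were called, 1 of 21 class I presentation genes fell, again Mr1 (−0.16 ± 0.04, adjusted p = 0.0259), none of 12 class II genes was called, and 2 of 20 interferon response genes fell, Gbp7 (−0.34 ± 0.07, adjusted p = 0.00167) and Irgm1 (−0.16 ± 0.04, adjusted p = 0.0255). In adipose tissue, where 44.9% of all genes were called, 1 of 5 class I genes rose, Calr (0.24 ± 0.06, adjusted p = 7.22e-04), and none of 3 class II and 2 interferon response genes was called. Of 3 macrophage markers tested there 2 rose, Cd68 (1.55 ± 0.17) and Adgre1 (1.17 ± 0.15), and Cd163 had −0.13 ± 0.08 (adjusted p = 0.17).

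The H2 genes were among the more variable genes within a diet. Over genes averaging 5 scaled TPM or more, the SD of log2 values had a median of 0.76 over 17 members in high-fat livers and 0.95 in control livers, against 0.44 and 0.37 over all 7421 genes. In muscle the medians were 1.01 and 1.11 over 11 members, against 0.32 and 0.32 over 8617 genes. H2-Ea-ps was the most variable member, with 1.73 in high-fat and 1.85 in control livers. H2-Ke6 was the least variable in control livers, at 0.24, and 86.8% of genes had a larger SD there. Its high-fat SD of 0.67 includes 1 liver library at 0. In muscle the class II genes H2-Aa (1.07 on the high-fat diet and 1.23 on the control diet) and H2-Ab1 (1.01 and 1.19) varied more than H2-T23 (0.54 and 0.60).

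The size of that spread was not called different between the diets. A limma test of absolute deviations from the diet median called 0 of 17 members in liver, where 0.027% of 7421 genes were called, 0 of 11 in muscle (0.0348% of 8617) and 0 of 1 in adipose tissue (2.27% of 1891). At an unadjusted p under 0.05 there was 1 member in liver, H2-Q7, with a smaller spread on the high-fat diet (difference −0.21 ± 0.09, p = 0.0146, adjusted p = 0.999), and none in muscle or adipose tissue. At that threshold 224 of all 7421 genes passed in liver. Lowering the mean to at least 1 scaled TPM also gave 0 calls in each tissue.

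Liver and muscle of the same mouse were compared next, as Pearson's r over mice within a diet for all 10965 genes tested in both. On the high-fat diet 5.77% of genes had a positive r past an adjusted p of 0.05, and on the control diet 6.31%. Of 21 members 11 did on the high-fat diet and 11 on the control diet, all positive, with 8 in both. The number of all genes that passed on both diets was not counted. The median r over the members was 0.35 on the high-fat diet and 0.35 on the control diet, against 0.06 and 0.05 over all genes. No member's r differed between the diets, a difference called for 0.0456% of genes. With TPM as deposited 5 members were called on the high-fat diet and 5 on the control diet.

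H2-T22 had the highest r on both diets. On the high-fat diet its liver level ran from 0.0652 to 60.99 scaled TPM (median 22.6) and its muscle level from 0.587 to 28.7 (median 8.65), and on the control diet liver ran from 0.403 to 84.2 (median 23.7) and muscle from 0.577 to 43.8 (median 11.6). The 3 high-fat mice lowest in liver had 3.21, 0.778 and 2.73 in muscle, ranks 15, 3 and 8 of 74 from the lowest, and the high-fat mouse highest in liver was also highest in muscle. The control mice lowest in liver, 4, 31 and 48, had the ranks 5, 1 and 2 in muscle. Pearson's r was 0.83 and Spearman's rho 0.89 on the high-fat diet, and 0.75 and 0.67 on the control diet (n = 74 each). Each permutation p was 1e-05, the smallest that 100000 permutations can give. Without the 2 mice farthest from the median in liver, r was 0.84 on the high-fat diet and 0.71 on the control diet.

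H2-T10, the close copy of H2-T22, had r = 0.72 on the high-fat diet and 0.67 on the control diet (rho 0.71 and 0.74), and the pseudogene H2-T-ps 0.62 and 0.71. H2-Eb1 had 0.55 and 0.68 (rho 0.45 and 0.63), H2-D1 0.52 and 0.33, the pseudogene H2-K2 0.56 and 0.35, and H2-K1 0.38 and 0.43 (rho 0.42 and 0.48; high-fat, then control, over 74 mice each). Among these, H2-D1 on the control diet was the 1 that did not pass the adjustment over all genes (adjusted p = 0.0589). It was called under 5 alternatives (adjusted p of 0.0239 to 0.0472), namely Spearman's rho, scaling by summed coding TPM, and without libraries of low scale factor, libraries with markers of another tissue or mismatched mice. Its r without the 2 mice farthest from the median in liver was 0.37 on the high-fat diet and 0.23 on the control diet. H2-K2 on the control diet was not called by Spearman's rho (adjusted p = 0.0833) or with a pseudocount of 0.1 (r = 0.21, adjusted p = 0.433). H2-K1 on the high-fat diet (adjusted p = 0.0201) was not called without the mice whose tissues did not match (0.0519) or with mouse 80 kept (0.269). H2-Q7 had 0.43 and 0.36, the control value not called without libraries of low scale factor (adjusted p = 0.0623).

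H2-Q5 and H2-Q6 passed on the high-fat diet only (r = 0.37 and 0.35, against 0.21 and 0.29 on the control diet), and H2-Aa, H2-Ab1 and H2-T23 on the control diet only (0.37, 0.39 and 0.36, against 0.25, 0.13 and 0.31 on the high-fat diet). The differences between the diets did not pass their own test. Several of these calls ended under an alternative. H2-Q6 was not called with a pseudocount of 0.1 or 5 (adjusted p = 0.184 and 0.101), without libraries of low scale factor (0.116) or without mismatched mice (0.0808), and H2-Q5 was not called with a pseudocount of 5 (0.233). H2-Aa on the control diet was not called without libraries of low scale factor (adjusted p = 0.0532) or with markers of another tissue (0.131). H2-T23 was called on the high-fat diet without libraries with markers of another tissue (r = 0.45, adjusted p = 0.00271) and without livers with a second number (r = 0.42, adjusted p = 0.00973).

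Other members were not called on either diet. Of these, H2-Q4 on the high-fat diet passed by Spearman's rho and without libraries of low scale factor (adjusted p = 0.034 and 0.0464), and H2-DMb1 on the control diet by Spearman's rho, with a pseudocount of 5 and without libraries of low scale factor (0.022, 0.0441 and 0.0438). H2-Q10 had r = 0.02 on the high-fat diet and 0.28 on the control diet, H2-Ke6 −0.02 and −0.10, H2-DMa 0.12 and 0.21, and H2-M3 −0.07 and 0.20. For H2-M3, liver and adipose tissue gave 0.08 on the high-fat diet (n = 74) and 0.20 on the control diet (n = 73), and muscle and adipose tissue 0.08 and 0.18, none of them called, where 2.3% and 2.58% of 1782 genes and 5.65% and 3.78% of 1930 genes had a called positive r.

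**Figure D3:**
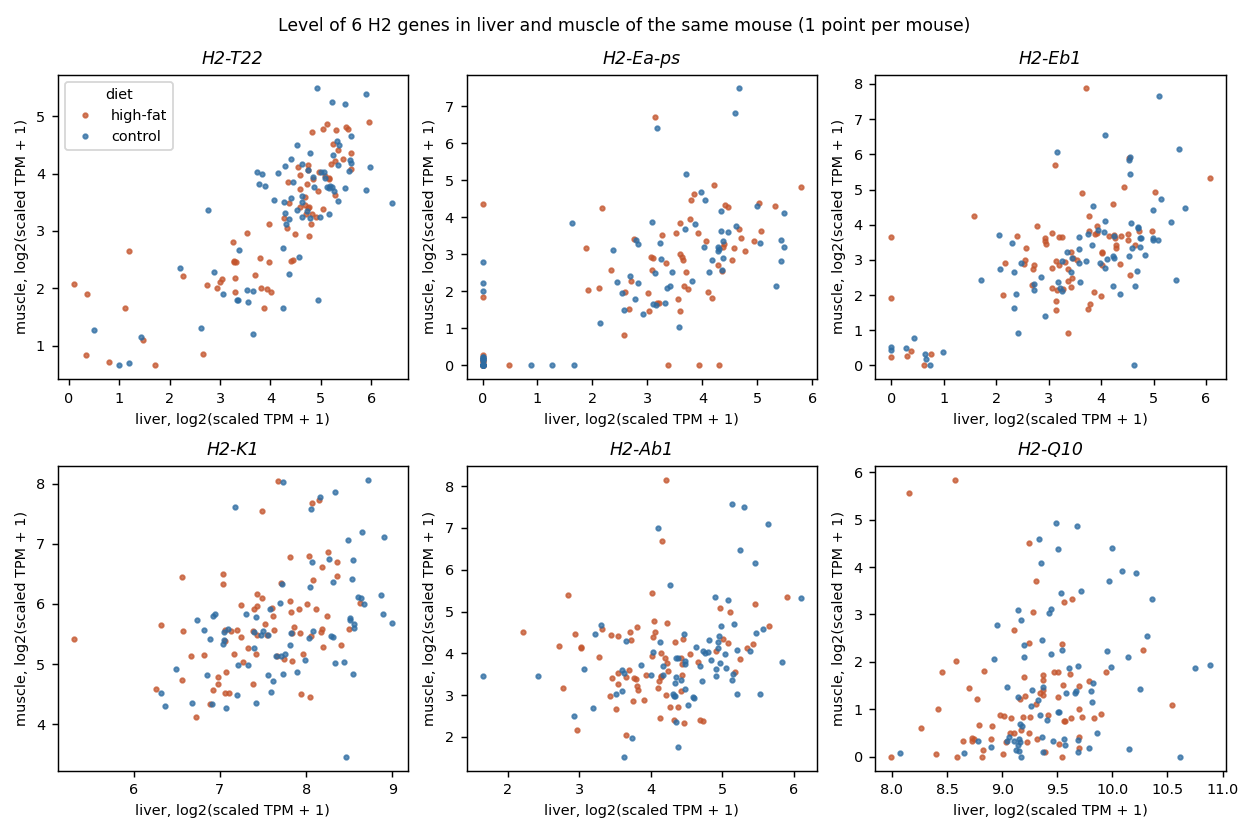
Level of H2-T22, H2-Ea-ps, H2-Eb1, H2-K1, H2-Ab1 and H2-Q10 in liver (x axis) and muscle (y axis) of the same mouse, as log2(scaled TPM + 1), 1 point per mouse and 74 mice per diet. H2-T22 follows a line on both diets, H2-Ea-ps and H2-Eb1 have a group of mice near 0 in both tissues, and H2-Q10 shows no line.

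H2-Ea-ps was nearly absent from some mice and present in the rest. On the high-fat diet 17 livers and 19 muscles had under 1 scaled TPM, and 15 mice had under 1 in both tissues. On the control diet these were 20 livers, 19 muscles and 17 mice. The remaining livers reached 54.4 on the high-fat diet and 43.96 on the control diet. The high-fat livers fell into separate clusters, with no mouse between 0.47 and 1.88 on the log2(scaled TPM + 1) scale, so no pooled r is given for that diet, although the gene is 1 of the 11 called in the fit over all genes. Within the 57 mice of the upper cluster r was 0.31 (permutation p = 0.0187) and rho 0.42 (permutation p = 0.00122). Of the 17 in the lower cluster 16 had a liver level of 0. Their r of −0.09 (permutation p = 0.764) therefore cannot show whether the tissues go together. On the control diet, where the livers left no such gap, r was 0.74 and rho 0.75 over all 74 mice (permutation p = 1e-05 each). These control values include the 20 livers under 1, so they are not comparable with the values within the high-fat clusters.

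In 11 mice H2-Ea-ps was under 1 in liver or muscle but not in both, and 10 of these 11 had a library of low scale factor in at least 1 of the tissues. A high-fat mouse had 0 in liver, whose scale factor was 0.0139, and 19.7 in muscle. The exception was a high-fat mouse with 4.94 in liver and 0.783 in muscle. H2-Eb1 was under 1 in 7 livers and 6 muscles on the high-fat diet, with 5 mice low in both, and in 8 livers and 10 muscles on the control diet, with 8 mice low in both. Of the 17 high-fat livers under 1 for H2-Ea-ps, 3 were among the 7 under 1 for H2-Eb1, and of the 20 control livers 3 were among the 8. This overlap was not tested.

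Same-numbered libraries were checked on the 150 genes outside the region of the H2 genes with the highest r between same-numbered livers and muscles. This choice used the pairing under check, so the match counts favour a library's own number. In 140 mice the muscle most like a given liver was the one from the same animal. Of the 8 others, 5 high-fat and 3 control, 7 had a library of low scale factor. Among these 8 were 5 of the 11 mice with H2-Ea-ps under 1 in only 1 tissue, and 3 of the 5 such mice for H2-Eb1. In mouse 45, a control mouse, both scale factors (1.16 and 0.591) were in the usual range. Its liver had r = 0.06 with its own muscle, rank 41 among all muscles, but its own adipose tissue ranked first (r = 0.45). H2-Eb1 was 23.6 in its liver and 0 in its muscle. Without the 8 mice, 9 members were called on the high-fat diet and 12 on the control diet, and r of H2-T22 was 0.85 and 0.78.

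**Figure D4:**
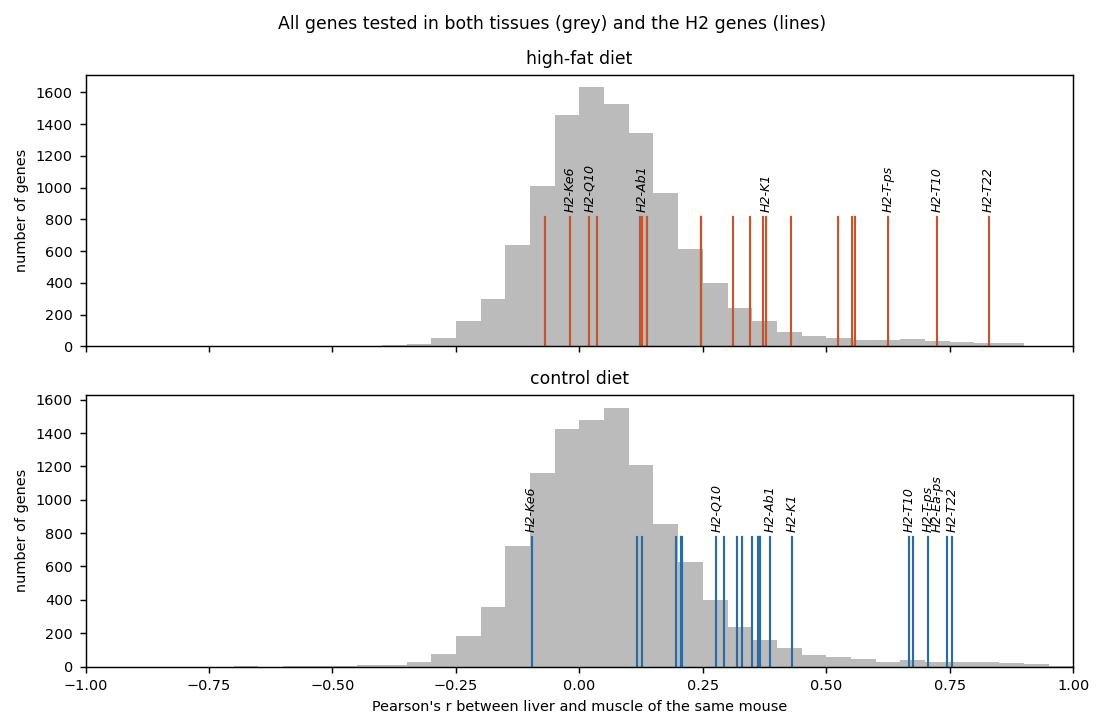
Distribution of Pearson's r between liver and muscle of the same mouse over all 10965 genes tested in both (grey bars, number of genes per 0.05 of r), on the high-fat diet (top) and the control diet (bottom). Lines are H2 genes, and H2-Ea-ps is left out of the top panel, where its livers form separate clusters. Most lines lie to the right of the bulk of genes, with H2-T22 farthest on both diets and H2-Ke6 below 0.

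The ratio of 2 H2 genes within a library does not depend on how the library was scaled, apart from the pseudocount. The ratios were chosen after the levels had been seen. H2-K1 over H2-D1 had a median log2 ratio of 0.97 in high-fat and 0.99 in control livers and of −0.26 in high-fat and −0.27 in control muscles. In the high-fat mouse with the lowest liver ratio H2-K1 had 38.5 and H2-D1 61.7 scaled TPM in liver, and 41.8 and 78.5 in muscle. In the high-fat mouse with the highest liver ratio H2-K1 had 132.3 and H2-D1 23.96 in liver, and 22.03 and 12.25 in muscle. The ratio ranked mice alike in both tissues: r was 0.74 and rho 0.69 on the high-fat diet and 0.72 and 0.72 on the control diet (n = 74 each, permutation p = 1e-05 each). Both exceeded the r of H2-K1 and of H2-D1 alone, a difference that was not tested.

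H2-T10 over H2-T22 ran from −5.09 to 4.57 on the log2 scale in high-fat livers and from −4.97 to 4.15 in control livers. In the high-fat mouse with the highest liver ratio H2-T10 had 24.2 and H2-T22 0.0652 in liver and 27.8 and 3.21 in muscle, while in the high-fat mouse 86 H2-T10 had 0 and H2-T22 32.95 in liver and 0.243 and 14.5 in muscle. In the control mouse 4 H2-T10 had 23.95 and H2-T22 0.403 in liver and 19.6 and 1.42 in muscle, and in the control mouse 23 they had 0.305 and 39.9 in liver and 0.274 and 21.5 in muscle. Here r was 0.88 and rho 0.86 on the high-fat diet, and 0.86 and 0.86 on the control diet (permutation p = 1e-05 each). The genes share 31.2% of the 50-base stretches of H2-T22, so the division of reads between them is uncertain.

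H2-Ea-ps over H2-Ab1 had r = 0.74 on the high-fat diet and 0.85 on the control diet, H2-T22 over H2-K1 0.69 and 0.78, and H2-Q7 over H2-Q6 0.59 and 0.67 (permutation p = 1e-05 each). H2-Eb1 over H2-Ab1 had 0.76 over all 74 mice of the control diet. Its high-fat livers fell into separate clusters, and r was 0.45 within the 67 mice of the upper one (permutation p = 2.3e-04). These values cover unlike sets of mice, so they do not show a difference between the diets. H2-Ab1 over H2-Aa, the chains of 1 molecule, ran from −1.55 to 0.02 on the log2 scale in high-fat livers (median −0.58) and from −2.16 to 1.72 in control livers (median −0.56). Its r was 0.12 on the high-fat diet and 0.18 on the control diet (permutation p = 0.292 and 0.111), while rho was 0.27 (permutation p = 0.0198) and 0.13 (0.257). The value depended on the libraries used: without those of low scale factor r was 0.42 on the high-fat diet (unadjusted p = 0.00111) and 0.10 on the control diet (0.45), without livers with a second number 0.12 (0.332) and 0.27 (0.0254), and without mismatched mice 0.12 (0.326) and 0.05 (0.683). Over the 14 relations of this family the Benjamini-Hochberg adjusted p of r was 1.17e-05 for each ratio but this one, for which it was 0.292 on the high-fat diet and 0.12 on the control diet (0.0213 and 0.257 for rho).

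**Figure D5:**
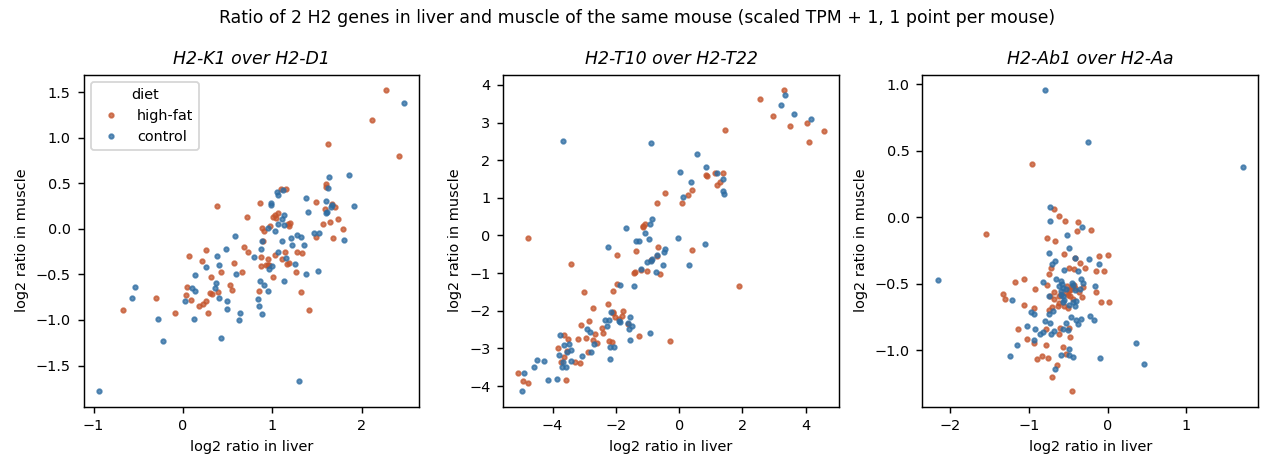
Log2 ratio (scaled TPM + 1) of H2-K1 over H2-D1, H2-T10 over H2-T22 and H2-Ab1 over H2-Aa in liver (x axis) and muscle (y axis) of the same mouse, 1 point per mouse and 74 mice per diet. The first and second ratios follow a line on both diets (r of 0.74 and 0.88 on the high-fat diet, 0.72 and 0.86 on the control diet), and the third forms a cloud.

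Within a tissue the class II chains H2-Aa and H2-Ab1 and the invariant chain Cd74 moved together. H2-Aa and H2-Ab1 had r = 0.91 in high-fat and 0.84 in control livers, and 0.96 and 0.95 in high-fat and control muscles (n = 74 each). H2-Ab1 and Cd74 had 0.86 in high-fat and 0.69 in control livers, and 0.95 and 0.98 in muscles. With the macrophage gene Adgre1, H2-Ab1 had 0.54 in high-fat and 0.35 in control livers, and 0.68 and 0.58 in muscles. H2-Eb1 and H2-Ea-ps, whose products pair, had 0.08 in control livers, and 0.30 and 0.36 in high-fat and control muscles. The permutation p of all of these was at most 0.00983, apart from H2-Eb1 with H2-Ea-ps in control livers (0.504), and 44 such relations were computed.

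The class I genes moved together in muscle more than in liver, a contrast that was not tested. H2-K1 and H2-D1 had r = 0.43 in high-fat and 0.47 in control livers, and 0.81 and 0.82 in muscles. H2-K1 and B2m had 0.27 in high-fat and 0.25 in control livers (permutation p = 0.0219 and 0.0322, adjusted over the 44 relations 0.0268 and 0.0382), and 0.84 and 0.86 in muscles. H2-K1 with H2-Ab1 had 0.19 in high-fat and 0.33 in control livers (permutation p = 0.111 and 0.00385), and 0.78 and 0.81 in muscles. The 6 muscles with T cell markers were among the highest for both classes. In those muscles H2-Ab1 ran from 48.9 to 284.2 scaled TPM and H2-K1 from 145.6 to 267.1. The other muscles had medians of 12.4 and 45.6 and reached 102.4 and 210.2, so the ranges overlapped. H2-Ob, a chain of an inhibitor of class II peptide loading made by B cells, was 9.40 to 62.6 in the 6 muscles and at most 1.10 in the others. The part of these libraries in the muscle correlations was not tested.

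H2-Q10 and the hepatocyte gene Alb gave r = 0.11 in high-fat and 0.21 in control livers (permutation p = 0.354 and 0.0729), but 0.80 and 0.62 in muscles (1e-05 each). H2-Q10 was low in most muscles, and its highest muscle value was 56.4 scaled TPM. Among the muscles the summed hepatocyte markers ranged from 2.70 to 5765 on the high-fat diet and from 2.20 to 1681 on the control diet.

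The genes most alike to 3 members over all mice of both diets, centred by diet and ranked by Spearman's rho, are given by tissue. For H2-Ab1 in liver they were Cd74 (rho = 0.88), Ctss (0.63), Tyrobp (0.60), C1qb (0.60) and Tmsb4x (0.59) of 7404 genes, and in muscle Cd74 (0.93), B2m (0.79), Ptprc (0.75), Ctss (0.75) and Tyrobp (0.75) of 8606 genes. Cd74, Ctss and Tyrobp were on both lists. For H2-K1 in liver they were Psmb8 (0.47), a subunit of the immunoproteasome, Tap1 (0.43), the peptide transporter, Cyp4f14 (0.41), Tmsb4x (0.38) and Tyrobp (0.36). In muscle they were B2m (0.82), Cd74 (0.79), Psmb8 (0.76), Anxa2 (0.76) and Cebpa (0.73). For H2-Q10 in liver they were Elovl5 (0.44), Slc25a1 (0.41), 9030616G12Rik (0.40), Acsl5 (0.39) and Cyb5b (0.39), of which Elovl5, Slc25a1 and Acsl5 act in lipid metabolism. Psmb8 and Tap1 lie in the complex themselves, and Cyp4f14 and H2-K1 are on the same chromosome. All these are genes of the same libraries, so depth and cell content are shared.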

How the data were processed

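RNA of 446 libraries had been sequenced on a MiSeq from stranded total RNA, per the labels' protocols. Trimming with Trim Galore 0.4.4, checks with FastQC and Bowtie 1.2.2 stand in the submitters' processing notes. No source used here names the quantifier, build or annotation. The authors deposited TPM (length-corrected relative abundance), 1 table per tissue. Read depth is unknown, so no counting interval is given. The adipose table was held in part: 2728 complete genes, with 1 incomplete line left out. Identifiers matched GENCODE M21 (GRCm38) for 99.1% of liver and muscle and 99.9% of adipose genes.

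TPM were divided, per tissue, by a scale factor: the trimmed mean of log2 ratios to the median of each gene, taken over protein-coding nuclear genes (Lars2 and the H2 genes not among them) with a median of at least 1 TPM, trimming 30% of ratios and 5% of levels from each end. Genes with at least 1 scaled TPM in a number of libraries equal to 0.7 of the smaller group were tested on log2(scaled TPM + 1), which understates the change of low genes, with limma 3.58.1 in R 4.3.3 (trend and robust), Benjamini-Hochberg adjustment, calls at 0.05 and fold changes given as high-fat minus control. For spread, limma was run on each mouse's absolute distance to its diet's median (genes with a mean of at least 5), same-mouse relations were tested by Pearson's r with adjustment over all genes and 100000 permutations for members, differences of r by Fisher's z, and differences of diet effects by a tissue by diet term, without and with the mouse as a block. Where at least 6 mice lay on either side of a gap of 1 log2 unit, no pooled r was given. The steps were tested on simulated data.

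Numbers pair the libraries because the same number marks the same animal. Matches were counted over the 150 genes outside the region with the highest r between same-numbered libraries, a choice that favours a library's own number. The best match of a liver was the muscle with its number in 140 mice (8 not), and each adipose pairing matched in 104 of 147. Over all 6025 genes eligible for this choice, the median r of liver and muscle was 0.318 for the same and −0.00166 for other numbers. Members averaging 5 scaled TPM or more are described with values, the 4 members of a pathway list with the smallest p are named, and the 5 genes with the highest rho are named as most alike. There were 3 pathway lists and 10 marker lists (B, T, NK and dendritic cells, macrophages, neutrophils, endothelium, hepatocytes, skeletal muscle and adipocytes). Markers of NK cells and neutrophils were not tested in liver, and those of T and NK cells not in muscle. No other marker list had a called gene in muscle. The members and lists were chosen with earlier results of these data known. Alternatives were the scaling, pseudocount, filter, mouse 80 kept, libraries of low scale factor, with a second number in the liver title (11 libraries) or from mismatched mice left out, and rank tests. Leaving out libraries with markers of another tissue, and the ratios, were chosen after seeing the data. Where labels do not say more, p-values measure the spread between these mice.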

Additional observations from a re-analysis of the deposited data

Results flagged for a closer look

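The diet effect on H2-M3 differed between liver and adipose tissue, by −0.27 ± 0.10 on the log2(scaled TPM + 1) scale (liver minus adipose, limma adjusted p = 0.0346, and 0.0238 with the mouse as a block). The gene had a log2 fold change of −0.17 in liver and 0.11 in adipose tissue, and neither passed the test alone. In liver 28 of 74 high-fat mice lay above the control median, and in adipose tissue 44 of 74 did.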

How the results depend on the processing

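With TPM as deposited, 5 H2 genes (high-fat) and 5 (control) were correlated between liver and muscle, 1 differed by diet in liver, the effect difference of H2-M3 between liver and adipose tissue was called for 0 genes, and that between muscle and adipose tissue for 1. Without a filter on low values 1 gene, H2-M2, was called in adipose tissue. With mouse 80 kept, 1 correlation differed by diet (H2-Q10). With a pseudocount of 0.1 the liver and adipose difference was called for 0 genes, and with a pseudocount of 5 the liver and muscle difference for 1 (H2-Q7). With the replicate block the liver and muscle difference was called for 2; the block changed no other call. Other alternatives gave 6 to 8 diet calls in liver, and 9 to 12 (high-fat) and 10 to 12 (control) correlated genes. The causes were not tested, and unknown depth limits all low values.

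Signs turned for values that had not passed the test. Without libraries holding markers of another tissue, muscle fold changes were 0.0321 for H2-Aa, 0.0586 for H2-Ab1 and 0.0919 for H2-K1, and H2-K1 had 0.0210 with mouse 80 kept and 0.0384 without libraries of low scale factor. Those libraries left out, H2-Ke6 had 0.0344 in liver, and its r was 0.0120 (high-fat) and 0.00636 (control). Its high-fat r was 0.101 with TPM as deposited, 0.0134 with a pseudocount of 5 and 0.237 without mismatched mice. H2-T-ps had 0.0211 in liver with a pseudocount of 5, and 0.0157 without livers with a second number. With TPM as deposited, H2-M3 had r of −0.0331 (liver and adipose, control), −0.0270 (muscle and adipose, control) and 0.0305 (liver and muscle, high-fat), and a liver and muscle effect difference of 0.0269. Its high-fat liver and muscle r was 0.0337 without libraries of low scale factor. The high-fat r of H2-Q10 was −0.574 with mouse 80 kept (adjusted p = 1.995e-06), −0.0881 with a pseudocount of 5, −1.88e-04 without livers with a second number and −0.00271 without mismatched mice.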
